A study of Petromyzon marinus and Lampetra planeri with 28 samples.

Results

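The integrin and galectin loci are 3 of the 72171 loci of the sea lamprey transcriptome. They comprise an integrin α-subunit locus listed under *ITGA2*, *ITGA10* and *ITGA11* (XLOC_015735, called *ITGA2/10/11* here), an integrin β-subunit locus listed under *ITGB3* (XLOC_005345) and a galectin locus listed under *LGALS3* (XLOC_029472). They were chosen by these locus numbers. All 3 are among the 25317 loci that had enough counts to be tested. Normalised counts, for which the authors scaled raw counts by DESeq2 size factors, are followed over dorsal neural tubes (DNTs) of sea lamprey embryos (*Petromyzon marinus*) at Tahara stages T18, T20 and T21. The dissected tissue held neural crest (NC) cells before and during their emigration. Peaks of open chromatin come from ATAC-seq of the sea lamprey and of the brook lamprey (*Lp* in the sample names).

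Each RNA-seq library was a pool of embryos, with 3 libraries of 30 embryos at T18, 2 of 35 at T20 and 3 of 35 at T21. The labels name no treatment and no genetic change. No control tissue without NC was counted, so a level in the DNT can belong to any cell of the dissected piece. ATAC-seq was carried out on DNTs at T20 and T21 and on whole heads at T23, with 9 libraries of the sea lamprey and 10 of the brook lamprey, and the peaks were pooled over stages. Samples of a stage are separate pools, and nothing else is known of their independence, so p-values measure the spread between these pools.

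Integrins are receptors that pair an α with a β subunit in the cell membrane and link the extracellular matrix to the actin cytoskeleton. In mammals, ITGA2, ITGA10 and ITGA11 pair with ITGB1 to bind collagens, whereas ITGB3 pairs with ITGAV or ITGA2B and binds ligands such as vitronectin and fibrinogen. Galectin-3, the product of *LGALS3*, is a secreted and cytoplasmic lectin that binds β-galactosides, including those on branched N-glycans of membrane glycoproteins. These roles are known from jawed vertebrates. Adhesion to the matrix through integrins is part of how NC cells move in those animals.

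Counts per library ranged from 12172421 to 91015285, a 7.48-fold range, and the T20 libraries differed from each other more than any other pair of a stage. Summed normalised counts of NC markers (*SOX10*, *Foxd3* and *WNT1*, 3 loci) were 71.9 to 172 at T18, 3299 to 5889 at T20 and 9230 to 10110.4 at T21. All 3 loci were called higher from T18 to T21, beside 18.9% of all tested loci. Sums of 9 neural tube loci went from 5742 to 6225 at T18 to between 9551 and 9765 at T21. Markers of other tissue moved as well. The sum of 9 epidermal loci (*TP63* and keratins) was 17524 to 21409 at T18, 37752 and 81969 at T20 and 114624 to 134622 at T21, whereas that of 8 mesodermal loci was 10992 to 11894 at T18 and 349 to 469 at T21. The epidermal loci did not move together: from T18 to T21, 6 were called higher and 2 lower, beside 18.9% and 14.7% of all tested loci. Among those that fell was *TP63* (XLOC_042779), from 8891 to 5132 normalised counts, while a *Krt8* locus (XLOC_028492) went from 416 to 73455. Of the 8 mesodermal loci, 6 were called lower from T18 to T21, beside 14.7% of all tested loci, and 2 were not called. From T18 to T20, 1 of them was called higher and 6 lower, beside 10.8% and 6.51% of all tested loci. Sums of 5 floor plate and notochord loci went from between 847 and 1746 at T18 to between 16.8 and 31.1 at T21, where the defining locus *FOXA2* (XLOC_029647) had no count. For 3 loci of blood and endothelium (*gata1-a*, *KDR* and *FLT3*) the sums were 675 to 887 at T18, 1305 and 1821 at T20 and 373 to 411 at T21, higher at T20 and lower at T21 than at T18. From T18 to T20, 1 of these loci was called higher, beside 10.8% of all tested loci, and 2 were not called. The median log2 fold change of the 3 was -1.31 at that step, so the higher sum at T20 does not hold for each locus. From T18 to T21 all 3 were called lower, beside 14.7% of all tested loci. The part of these markers in the changes described next was not tested, and in bulk tissue fewer cells of a type cannot be told apart from less RNA per cell.

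*ITGA2/10/11* lies on the plus strand of scaf_00013 of the sea lamprey germline genome, from 8436785 to 8539432. Of its 5 assembled transcripts, 4 ended at 8484568, where they shared a last exon of 4069 bases, and they held from 17 to 30 exons. Those with 30 exons (TCONS_00027207 and TCONS_00027208) had 8122 and 7933 exonic bases. A shorter form (TCONS_00027210) started inside the locus at 8465899. The remaining transcript (TCONS_00027209) had 14 exons and 1969 exonic bases. It left out the shared last exon and passed over an intron of 74477 bases to end at 8539432, which accounts for the full span of 102648 bases. *ITGB3* lies on the minus strand of scaf_00004, from 12877097 to 12897862, with 1 transcript of 15 exons and 6103 exonic bases. *LGALS3* lies on the plus strand of scaf_00029, from 7909476 to 7916973, with 1 transcript of 4 exons and 2829 exonic bases, of which 2314 are in its longest exon. Counts are per locus, so the transcripts of *ITGA2/10/11* were not separated.

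All 3 loci rose at both steps, and on the log2 scale most of each rise had taken place by T20. Changes were tested over all tested loci at once with edgeR (quasi-likelihood model), and p-values were adjusted over these loci after Benjamini and Hochberg. *ITGA2/10/11* rose most, and the difference between its steps passed the test. For *ITGB3* and *LGALS3* that difference did not pass (edgeR adjusted p = 0.14 and 0.10). Their calls at the second step were each lost in 4 of 15 alternative settings. For none of the 3 did libraries of different stages overlap, an order of T18 below T20 below T21 that 7.05% of tested loci shared. Taken alone, every T20 library lay above every T18 library at 22.1% of tested loci, every T21 above every T20 library at 22.3% and every T21 above every T18 library at 26.9%. The loci had been placed by the study in a group of loci that increased together in these same libraries. The study described that group as rising up to T20 and then holding its level at T21. Neither the direction of the loci from T18 to T20 nor a first step larger than the second is thus independent evidence.

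*ITGA2/10/11* had 104, 76.8 and 77.3 normalised counts in the T18 libraries. In the T20 libraries it had 829.6 and 592. In the T21 libraries it had 1739, 1744 and 1664. The T18 libraries were all low and the T21 libraries nearly equal, while T20 replicate 1 was the higher of its pair. The lowest T20 library was 5.71 times the highest T18 library, and the lowest T21 library 2.01 times the highest T20 library. The stage means, in order, were 85.9 ± 15.4, 711 ± 168 and 1716 ± 44.9 (SD, with n = 3, 2 and 3). From T18 to T20 the log2 fold change was 3.07 (standard error 0.17, edgeR adjusted p = 1.9e-07) and from T20 to T21 it was 1.26 (standard error 0.16, edgeR adjusted p = 4.5e-04). The whole interval gave 4.33 (standard error 0.16, edgeR adjusted p = 2.0e-09).

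*ITGB3* started higher and rose less. Its normalised counts were 777, 577 and 499.9 at T18. At T20 they were 1463 and 1754. At T21 they were 2607, 2533 and 2476. The gap between stages was narrower than at the α-subunit locus, with the lowest T20 library at 1.88 times the highest T18 library and the lowest T21 library at 1.41 times the highest T20 library. The stage means were 618 ± 143, 1609 ± 205 and 2539 ± 65.5 (SD, same n). *ITGB3* rose on the log2 scale by 1.39 between T18 and T20 (standard error 0.15, edgeR adjusted p = 4.7e-05), by 0.65 between T20 and T21 (standard error 0.15, edgeR adjusted p = 0.018) and by 2.03 between T18 and T21 (standard error 0.14, edgeR adjusted p = 2.9e-07). The call from T20 to T21 was lost without T20 replicate 1 (log2 fold change 0.54, edgeR adjusted p = 0.078) and without T21 replicate 1, 2 or 3 (edgeR adjusted p = 0.067, 0.059 and 0.059), and its adjusted p over 15 alternatives, DESeq2 included, ranged from 2.8e-06 to 0.078.

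*LGALS3* reached the highest counts of the 3. Its T18 libraries had 465, 312 and 343 normalised counts. Its T20 libraries had 1619 and 3013, and its T21 libraries had 4956, 5616 and 4736. The T20 libraries differed 1.86-fold, with replicate 2 the higher, against 1.4-fold at *ITGA2/10/11* with replicate 1 the higher and 1.20-fold at *ITGB3* with replicate 2 the higher. Even so, the lowest T20 library was 3.48 times the highest T18 library, and the lowest T21 library was 1.57 times the highest T20 library. The stage means were 373 ± 80.6, 2316 ± 986 and 5102 ± 458 (SD, same n). On the log2 scale *LGALS3* rose by 2.64 between T18 and T20 (standard error 0.25, edgeR adjusted p = 2.4e-04), by 1.13 between T20 and T21 (standard error 0.26, edgeR adjusted p = 0.030) and by 3.77 between T18 and T21 (standard error 0.25, edgeR adjusted p = 8.4e-06). Leaving out T20 replicate 1 gave 0.77 for the second step, and leaving out T20 replicate 2 gave 1.66. That call was lost without T21 replicate 1, 2 or 3 (edgeR adjusted p = 0.061, 0.070 and 0.057), and its adjusted p over 15 alternatives, DESeq2 included, ranged from 5.4e-07 to 0.070. It was also lost when replicate number was added to the model as a block (log2 fold change 1.20, edgeR adjusted p = 0.061).

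**Figure D1:**
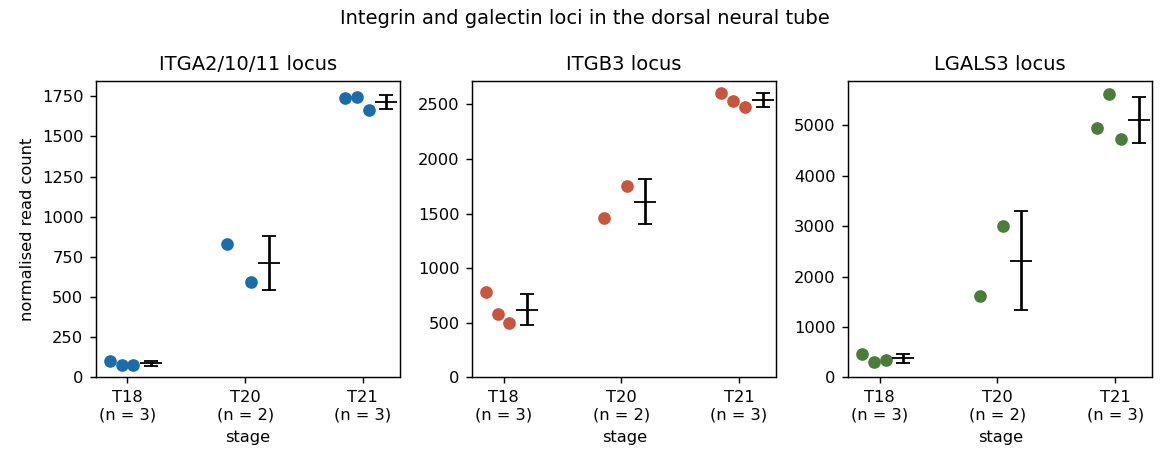
Normalised read counts of the 3 loci at T18, T20 and T21. Points are libraries, and the bars beside them show the mean and SD of each stage (n = 3, 2 and 3). In every panel the libraries of the stages lie apart, and at T20 the pair is widest for *LGALS3*, at 1619 and 3013.

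All 3 loci were thus called higher at T20 than at T18, as were 10.8% of tested loci (17.3% in either direction), and all 3 were called higher at T21 than at T20, against 5.4% of tested loci (9.8% in either direction). From T18 to T21, 18.9% of tested loci were called higher (33.6% in either direction). Both steps were called for 2.07% of tested loci. With upper quartile normalisation, loci higher at T20 made up 47.0% of the calls between T20 and T18 in place of 62.4%, and the 3 loci kept their calls.

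The first step was larger than the second for *ITGA2/10/11*. The log2 change after T20 minus that before T20 was -1.82 (standard error 0.27, edgeR adjusted p = 0.0025), a contrast called in either direction at 4.53% of tested loci and as a smaller later step at 3.01%. It ranged from -2.24 to -1.24 over 14 alternatives and passed the threshold under each (adjusted p from 7.3e-10 to 0.014). For *ITGB3* the difference was -0.74 (standard error 0.26, edgeR adjusted p = 0.14), and without T18 replicate 1 it was -0.90 with an edgeR adjusted p of 0.026. For *LGALS3* it was -1.50 (standard error 0.43, edgeR adjusted p = 0.10), with -2.23 and an edgeR adjusted p of 0.0012 without T20 replicate 1, and -0.46 without T20 replicate 2. Over these 14 alternatives, in edgeR or DESeq2, adjusted p ranged from 0.026 to 0.54 for *ITGB3* and from 2.5e-04 to 0.51 for *LGALS3*. By T20, 71.0% of the log2 rise of *ITGA2/10/11* had been reached, 68.1% of that of *ITGB3* and 69.9% of that of *LGALS3*. In mean normalised counts the shares reached by T20 were 38.3%, 51.6% and 41.1%, in the same order, so on that scale most of the rise of *ITGA2/10/11* and *LGALS3* came after T20. Whether the loci differ in this respect was not tested. T18 and T21 are separated from T20 by unequal numbers of stages, so a step is not a rate.

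Levels can be compared between loci only per length. Per kb of exonic length, *LGALS3* was above *ITGB3*, and *ITGB3* above *ITGA2/10/11*, in each of the 8 libraries. At T18 their means were 132 ± 28.5 normalised counts per kb for *LGALS3* and 101 ± 23.4 for *ITGB3* (SD, n = 3), and the libraries of these loci overlapped, while *ITGA2/10/11* was at 10.3 ± 1.8. By T21 the means were 1804 ± 162, 416 ± 10.7 and 205 ± 5.36 normalised counts per kb, and the loci no longer overlapped. The level of *LGALS3* per kb was above that of 72.9% of tested loci at T18 and of 97.8% at T21. The corresponding shares were 68.0% and 89.5% for *ITGB3* and 19.2% and 79.4% for *ITGA2/10/11*.

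The ratio of *ITGA2/10/11* to *ITGB3* per kb was 0.0971, 0.0969 and 0.113 in the T18 libraries. At T20 it was 0.413 in replicate 1 and 0.246 in replicate 2. At T21 it was 0.486, 0.501 and 0.489. The T21 libraries all lay above those of T20 and T18. Between T18 and T21 the log2 ratio differed by 2.27, with T21 the higher (two-sided exact permutation test, p = 0.10, the smallest value that 3 against 3 libraries allow). The sum of transcripts says nothing of which subunits were paired in the membrane.

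The T20 libraries placed the loci differently. *LGALS3* and *ITGB3* were higher in T20 replicate 2, where the summed NC markers were 1.79 times and the summed epidermal markers 2.17 times those of replicate 1, and where the mesodermal markers were lower, at 1631 against 3366. These are sums over loci. From T18 to T21 the epidermal loci did not move together, and 2 of the 8 mesodermal loci were not called. *ITGA2/10/11* was higher in T20 replicate 1. Of the 523 loci called higher at both steps, 28.5% were higher in T20 replicate 1 than in replicate 2. Over the whole interval from T18 to T21, the mean of the summed epidermal markers became 6.66 times as high and that of the NC markers 80.1 times, next to 20.0 times for *ITGA2/10/11*, 4.11 times for *ITGB3* and 13.7 times for *LGALS3*. At T21 the epidermal sum rested in large part on a single *Krt8* locus (XLOC_028492), so its rise does not stand for all epidermal loci.

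**Figure D2:**
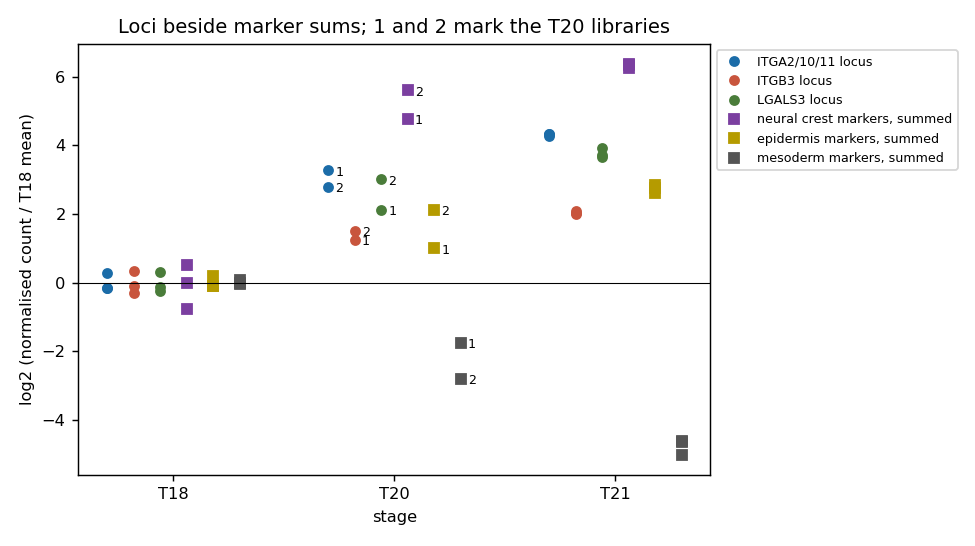
Log2 ratio of each library's normalised count to the T18 mean, for the 3 loci (circles) and for summed markers of neural crest, epidermis and mesoderm (squares), by stage. The digits 1 and 2 mark the T20 replicates: *LGALS3*, *ITGB3*, neural crest and epidermal sums were higher in replicate 2, and *ITGA2/10/11* was higher in replicate 1.

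Among integrin α subunits, names from the study's lists led to 11 loci, *ITGA2/10/11* included, of which 10 were tested. Such lists hold loci that changed or clustered in these data and were in part shortened, so the counts are not shares of the family. All gene and marker lists here were named in this way. Their loci were thus preselected for change, and more calls among them than among all tested loci is not a result about a family. From T18 to T21, 9 α loci rose and 1 fell, with a median log2 fold change of 1.68 (*ITGA2/10/11* included) against -0.03 over all tested loci. Calls made up 18.9% (higher) and 14.7% (lower) of all tested loci. *ITGA2/10/11* had the largest rise, ahead of *ITGA7*, a laminin receptor in mammals, at 2 loci with log2 fold changes of 3.63 (XLOC_033623, standard error 0.21) and 3.29 (XLOC_005433, standard error 0.15). A locus listed as *ITGA2* alone (XLOC_015737) begins 6412 bases downstream of *ITGA2/10/11* on the same strand, with 13 exons, and rose by 3.11 (standard error 0.76, edgeR adjusted p = 0.0060). It rested on 119 counts over the 8 libraries, and its means of 2.27 ± 1.97, 8.02 ± 3.45 and 23.9 ± 10.8 normalised counts lay far below those of *ITGA2/10/11*. The distance of 6412 bases is from the end of TCONS_00027209. All other transcripts of *ITGA2/10/11* ended at 8484568, whereas XLOC_015737 starts at 8545844. Whether both loci are pieces of a single gene was not tested, and with reads of several mappings counted, similar copies can share counts.

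The remaining α loci rose by less. *ITGA9* (XLOC_033777), whose product binds tenascin in mammals, rose by 2.37 (standard error 0.15), and the locus listed as *Itgav* and *itga5* (XLOC_006427) by 0.99 (standard error 0.10). Neighbouring loci listed as *ITGA5*, the fibronectin receptor subunit, rose by 0.73 (XLOC_028760, standard error 0.10) and 0.68 (XLOC_028761, standard error 0.09), and a locus listed as *Itga8* and *itga5* (XLOC_004916) by 0.77 (standard error 0.24, edgeR adjusted p = 0.022). The call of XLOC_004916 was lost in 5 of 15 alternatives (adjusted p from 0.0063 to 0.098), namely without T18 replicate 1 or 2, without T21 replicate 1 or 3 and with upper quartile normalisation (edgeR adjusted p = 0.076, 0.098, 0.075, 0.088 and 0.054). The 1 locus that fell is listed as *ANP32B* and *Itga11* (XLOC_008340, log2 fold change -0.56, standard error 0.08), and its 51381 normalised counts at T18 cannot be divided between these genes. *Itgam* (XLOC_067758) had too few counts to be tested. At the first step 6 α loci rose, and at the second step 5 rose and 1 fell, beside 10.8% of tested loci higher and 6.51% lower at the first step and 5.4% higher and 4.4% lower at the second. The fall at the second step was that of XLOC_008340 (log2 fold change -0.35, edgeR adjusted p = 0.030), and it was lost in 8 of 15 alternatives, among them those without any 1 of the T18 or T21 libraries (adjusted p from 8.1e-04 to 0.10 over the 15). The first-step rise of XLOC_028760 (0.47) was lost without T18 replicate 2 (0.45, edgeR adjusted p = 0.055) and without T20 replicate 2 (0.22, edgeR adjusted p = 0.15), within a range over 15 alternatives of 4.0e-05 to 0.15. A smaller later step was called at *ITGA2/10/11* (-1.82) and at both *ITGA7* loci (-1.81, standard error 0.28, and -1.62, standard error 0.37), a call made at 3.01% of tested loci. By contrast, XLOC_028761 (*ITGA5*) had a larger later step (0.84, standard error 0.18, edgeR adjusted p = 0.018), a call made at 1.52% of tested loci. Its neighbour XLOC_028760, also listed as *ITGA5*, had no such call (-0.21, standard error 0.20, edgeR adjusted p = 0.64). Whether these neighbours are pieces of a single gene was not tested. Ranked by level per kb, *ITGA2/10/11* was in place 8 of the 11 α loci at T18, place 6 at T20 and place 5 at T21.

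Among integrin β subunits 7 loci were named and tested, of which 5 rose and 2 fell from T18 to T21 (18.9% and 14.7% of all tested loci), with a median log2 fold change of 2.03. The median was the value of *ITGB3* itself. *ITGB5*, which like *ITGB3* pairs with ITGAV in mammals, rose by 2.87 (XLOC_005139, standard error 0.22), and *Itgb4*, the hemidesmosome subunit of epithelia, by 2.43 (XLOC_035243, standard error 0.23). Loci listed as *ITGB1*, the partner of the collagen-binding α subunits, went both ways. XLOC_005236 rose by 5.32 (standard error 0.78) from 1.81 ± 1.90 to 104 ± 20.2 normalised counts, and XLOC_005235, also listed as *COL15A1*, rose by 1.62 (standard error 0.17). By contrast, XLOC_006853 fell by 1.32 (standard error 0.26, edgeR adjusted p = 0.0030) from 742 ± 214 to 299 ± 20.9, and its neighbour XLOC_006854 fell by 1.36 (standard error 0.33, edgeR adjusted p = 0.0058). XLOC_005236 lies inside the span of XLOC_005235. Whether these loci, or XLOC_006853 and XLOC_006854, are pieces of a single gene was not tested. No β locus passed the threshold for a difference between steps in edgeR (3 with an unadjusted p under 0.05, all with the smaller later step) or in DESeq2, and the median difference was -0.75. Over all tested loci, edgeR called such a difference at 4.53%, so 0 calls among 7 loci do not set the β loci apart. *ITGB3* was in place 3 of the 7 β loci by level per kb at T18 and in place 1 at T20 and T21, and its share of their summed level went from between 21.2% and 21.3% at T18 to between 39.6% and 41.9% at T21.

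**Figure D3:**
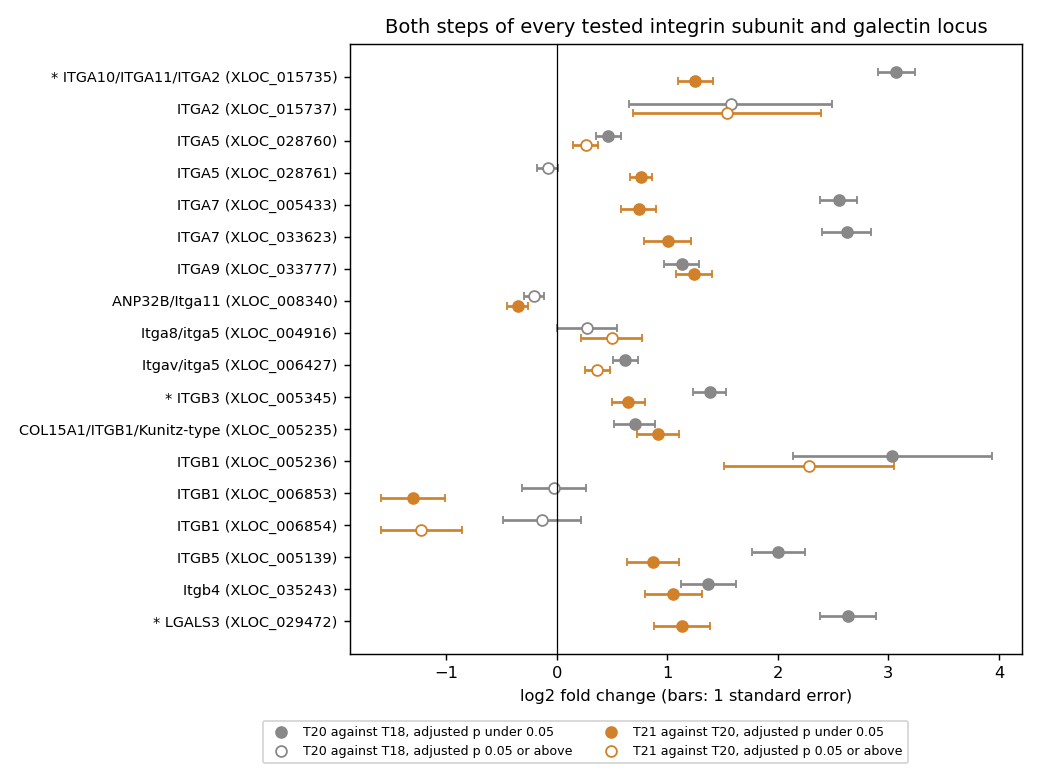
Log2 fold changes with standard errors for the first step (T20 against T18, grey) and the second (T21 against T20, orange) at 10 integrin α, 7 integrin β and 1 galectin loci, with filled symbols for an adjusted p under 0.05 and asterisks at the 3 loci. The first step of *ITGA2/10/11*, at 3.07, is far to the right of its second, at 1.26, and the *ITGB1* loci XLOC_006853 and XLOC_006854 lie left of 0 at the second step.

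*LGALS3* was the only locus named as a galectin. Of the *MGAT* family, which includes enzymes that branch the N-glycans galectin-3 binds, 10 loci were named and tested. Whether the product of each branches N-glycans was not tested. From T18 to T21, 8 rose and 2 fell, beside 18.9% and 14.7% of all tested loci, with a median log2 fold change of 1.18. The largest rises were those of 2 loci listed as *MGAT4C* (XLOC_016564, 4.51, standard error 0.38, and XLOC_001923, 2.17, standard error 0.28). The decreases were those of *MGAT5B* (XLOC_056043, -1.11, standard error 0.27) and of a locus listed as *MGAT5* (XLOC_064187, -0.85, standard error 0.26). A further *MGAT5* locus (XLOC_005191) rose by 0.65. From T18 to T20, when *LGALS3* rose by 2.64, 6 of the 10 were called higher and 1 lower, with a median of 0.87. Over all tested loci, 10.8% were called higher and 6.51% lower at that step. From T20 to T21, when *LGALS3* rose by 1.13, a single locus of the 10 was called higher, *MGAT4C* (XLOC_016564), and 9 did not pass the test. At this step 5.4% of all tested loci were called higher.

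For adaptors that tie integrins to actin, 34 of 35 named loci were tested, and 27 rose and 3 fell from T18 to T21 (median log2 fold change 1.29), beside 18.9% and 14.7% of all tested loci. Filamins, which cross-link actin and bind β-subunit tails, made up the largest rises (XLOC_060341, listed as *Flna* and *Flnc*, 4.32, standard error 0.31, and XLOC_060339, *Flnc*, 4.05, standard error 0.32). Loci with the same name lie side by side here and can be pieces of a single gene. *Parvb* (XLOC_001919), which codes for a parvin of the integrin-linked kinase complex, fell by 1.48 (standard error 0.36) and the tensin locus *TNS1* (XLOC_018872) fell by 1.28 (standard error 0.16). Other parvin and tensin loci went both ways. *PARVB* rose by 0.88 at XLOC_001972 (standard error 0.19). It rose by 2.21 at XLOC_016599 (standard error 0.67), with a mean of 26.2 normalised counts at T21. The tensin loci XLOC_005463 (*TENC1* and *TNS*) and XLOC_055081 (*TNS3*) rose by 3.69 (standard error 0.31) and 2.76 (standard error 0.22). A further tensin locus (XLOC_045149, *TNS*) fell by 0.67 (standard error 0.09).

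Collagens are the ligands of the α subunits named at *ITGA2/10/11*. Of 33 tested loci, 8 rose and 1 fell from T18 to T20 (10.8% and 6.51% of all tested loci), and 13 rose and 3 fell from T20 to T21 (5.4% and 4.4%), with median log2 fold changes of 0.35 and 1.37. Over the whole interval 21 rose and 3 fell (18.9% and 14.7%). The extremes were *COL1A1* (XLOC_003461, 3.94, standard error 0.60), a locus listed as *COL11A1* and *COL11A2* (XLOC_025483, 3.56, standard error 0.22), *COL2A1* (XLOC_028575, -4.51, standard error 0.64) and *COL3A1* (XLOC_060533, -2.22, standard error 0.51). The study placed *Col3a1* in a group that increased at T21, so the fall of XLOC_060533 need not hold for every locus of that name. A larger later step was called in edgeR at 4 collagen loci and a smaller one at 0 (9 and 5 at an unadjusted p under 0.05, and 5 and 1 in DESeq2), and 29 loci were not called, while *ITGA2/10/11* had the smaller later step. Over all tested loci, edgeR called a larger later step at 1.52% and a smaller one at 3.01%. The courses of the collagens and of *ITGA2/10/11* were not compared by a test.

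Other matrix ligands were divided. Of 18 tested loci of fibronectin, laminins, tenascins and other matrix proteins, 8 rose and 5 fell from T18 to T21 (median log2 fold change 0.43), beside 18.9% and 14.7% of all tested loci. *thbs1* (XLOC_026258), whose product thrombospondin binds ITGAV with ITGB3 in mammals, rose by 4.47 (standard error 0.21), and *lamb4* (XLOC_028055) by 4.40 (standard error 0.25). *LAMB1* (XLOC_060252) fell by 0.97 (standard error 0.17) and *Lamb2* (XLOC_038663) fell by 0.85 (standard error 0.08).

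Loci whose course was most like that of each member were sought among 3801 named loci with a mean of at least 50 normalised counts, by Pearson's r of log2(normalised count + 1) over the 8 libraries. Pearson's r takes no account of the size of a change. These values describe 8 points that share 3 stages, and many loci come close to them. For *ITGA2/10/11* the nearest were *SYNE1* (XLOC_011440, r = 0.998), which codes for nesprin-1 of the nuclear envelope, a locus listed as "Aspartic" (XLOC_025634), *cdk7* (XLOC_030958), *Npr3* (XLOC_015786) and a locus listed as *PKIA*, *PXDN* and *TRIB2* (XLOC_000518, r = 0.997). For *ITGB3* they were *ADAM9* (XLOC_017839, r = 0.999), a membrane metalloprotease, *Ern1* (XLOC_021568), *MEIS1* (XLOC_029378), *WNT3* (XLOC_028782) and *Col15a1* (XLOC_005221, r = 0.996). *LGALS3* was nearest to a locus listed as a keratin (XLOC_066647, r = 0.999), followed by *GPD3* (XLOC_009393), *B4GALT2* (XLOC_024864), which codes for a galactosyltransferase, *Src42A* (XLOC_019549) and *CDC42EP4* (XLOC_021587, r = 0.998). The mean normalised counts of the keratin locus XLOC_066647 were 383, 3618 and 9491 by stage. From T18 to T21, *WNT3* rose by 10.13 on the log2 scale (standard error 0.60), against 2.03 for *ITGB3*. XLOC_025634 rose by 1.38 (standard error 0.12), against 4.33 for *ITGA2/10/11*. The members were less like each other, with r = 0.984 between *ITGA2/10/11* and *ITGB3*, 0.980 between *ITGA2/10/11* and *LGALS3* and 0.991 between *ITGB3* and *LGALS3*, and 54, 68 and 94 named loci exceeded r = 0.99 with *ITGA2/10/11*, *ITGB3* and *LGALS3*.

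Neighbouring loci were mostly unnamed. Within 50 kb lay 13 further loci at *ITGA2/10/11*, 11 at *ITGB3* and 9 at *LGALS3*, of which 5, 4 and 3 were tested. None of these 12 was called in edgeR, in either direction, from T18 to T20 or from T20 to T21. Over all tested loci, 17.3% and 9.8% were called at these steps. Unadjusted edgeR p-values under 0.05 were found at 3 higher and 4 lower neighbours at the first step and at 3 higher and 1 lower at the second, and DESeq2 called 3 lower at the first step and 1 higher at the second. From T18 to T21, where 33.6% of all tested loci were called, only XLOC_015737 (*ITGA2*) was called at *ITGA2/10/11*. At *ITGB3* the only such call was an unnamed locus (XLOC_005907), which fell by 1.01 (standard error 0.31). At *LGALS3* an unnamed locus on the minus strand (XLOC_029655) rose by 3.61 (standard error 0.58) from 2.93 ± 0.41 to 37.4 ± 5.94 normalised counts, and the next locus downstream (XLOC_029473) fell by 0.50 (standard error 0.08). Counting used strand. XLOC_015736 shares the strand of *ITGA2/10/11* and overlaps its long intron, with 34 counts in all.

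Open chromatin was described from the consensus peaks, 236315 of the sea lamprey and 314377 of the brook lamprey, both on the sea lamprey genome. Peaks give positions only, pooled over T20, T21 and T23, so no change with stage can be read from them, and no test was made. Where a brook lamprey peak is missing, closed chromatin cannot be told apart from sequence on which brook lamprey reads did not map.

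*ITGA2/10/11* held 24 sea lamprey and 38 brook lamprey peaks, or 2.34 and 3.70 per 10 kb, against medians of 2.17 and 3.24 over 17630 tested loci with a strand and more than 1 exon. Its density is thus near the middle of these loci. A sea lamprey peak (8436734 to 8437322) covered the start sites of the 4 transcripts that begin at the 5′ end, and 2 more sea lamprey peaks lay within 1 kb of them. No brook lamprey peak lay within 1 kb of these sites, and the nearest began 1557 bases inside the locus from the third site (8438630 to 8438849). At the internal start at 8465899 the order was the opposite, with brook lamprey peaks 486 bases upstream (8465194 to 8465413) and inside (8466643 to 8467072), and no sea lamprey peak within 1 kb. Of the 24 sea lamprey peaks inside the locus, 12 were overlapped by a brook lamprey peak, 50.0% against 39.1% of all sea lamprey peaks, whereas over the window of 50 kb on either side the share was 35.4% (17 of 48).

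The shared peaks of *ITGA2/10/11* were spread over both stretches of the locus. Up to the shared 3′ end at 8484568 (47.8 kb) lay 10 sea lamprey peaks, 5 of them shared, and beyond it (54.9 kb), inside the long intron of TCONS_00027209, lay 14, of which 7 were shared. A run of 3 shared sea lamprey peaks fell between 8486511 and 8489301, and 4 more between 8517574 and 8524851. Those at 8517574 to 8517996 and 8518155 to 8518569 were covered to 93.9% and 82.9% by brook lamprey peaks. In the first stretch, the shared peaks included 2 at 8453050 to 8453565 and 1 over an exon at 8455544 to 8455768.

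*ITGB3* held 5 sea lamprey and 7 brook lamprey peaks, or 2.41 and 3.37 per 10 kb. A sea lamprey peak (12897389 to 12897676) lay 186 bases inside the locus from its start at 12897862, and the nearest brook lamprey peak was 3049 bases away. That brook lamprey peak (12894573 to 12894813) overlapped a sea lamprey peak over an exon (12894632 to 12894830), and it was the only shared peak inside the locus. The other 3 sea lamprey peaks were intronic, between 12884423 and 12885984, and had no brook lamprey counterpart. Within 50 kb lay 23 sea lamprey and 37 brook lamprey peaks, and the widest sea lamprey peak (12915504 to 12917598, 2095 bases) overlapped the neighbour that fell, XLOC_005907.

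*LGALS3* held no sea lamprey peak and 3 brook lamprey peaks. Among 3158 tested loci of 5 to 10 kb, 8.87% had no sea lamprey peak inside, and 8.17% had a brook but no sea lamprey peak. A brook lamprey peak (7909243 to 7909651) covered the start at 7909476, whereas the nearest sea lamprey peak (7904234 to 7905057) ended 4419 bases upstream. The other brook lamprey peaks lay in an intron (7910798 to 7911010) and in the last exon (7916056 to 7916276). The window of 50 kb on either side held 17 sea lamprey peaks, fewer than at most loci (median 24), and 34 brook lamprey peaks (median 35). Of the 6 shared sea lamprey peaks in it, 5 lay within 1 kb of a start of another locus, against 2 of 8 at *ITGB3* and 2 of 17 at *ITGA2/10/11*.

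At no 5′ end of the 3 loci did both species have a peak within 1 kb. Over all start sites of a locus, 63.0% of the 17630 loci had a peak of both species, 17.1% of the sea lamprey only, as at *ITGB3*, and 11.3% of the brook lamprey only, as at *LGALS3*. *ITGA2/10/11* counts among those with both only through its internal start. With 3 loci, nothing can be said of whether they differ from the rest in this respect.

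**Figure D4:**
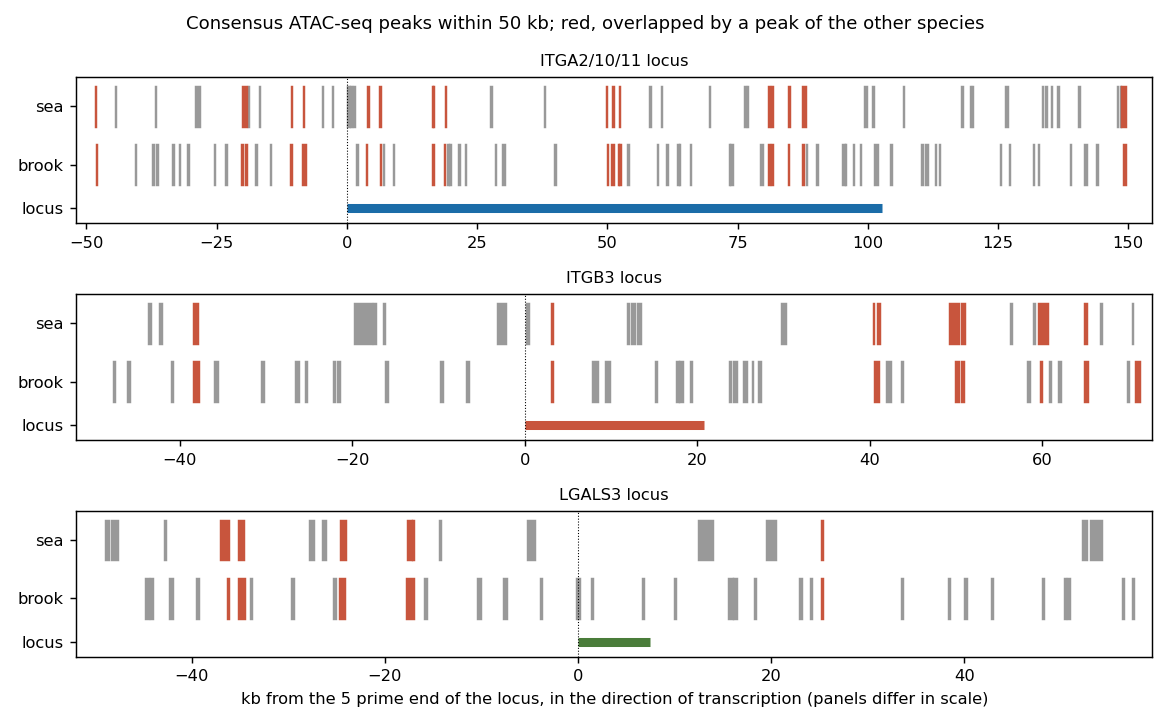
Consensus ATAC-seq peaks of the sea and brook lamprey within 50 kb of each locus, by distance in kb from its 5′ end in the direction of transcription, with the locus as a bar. Red marks peaks overlapped by a peak of the other species: 17 of 48 sea lamprey peaks at *ITGA2/10/11*, 8 of 23 at *ITGB3* and 6 of 17 at *LGALS3*, the last all outside the locus.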

How the data were processed

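The authors trimmed RNA-seq reads with Sickle, mapped them with STAR 2.4.2, assembled transcripts with Cufflinks and counted fragments per locus with featureCounts, by strand and with multiply mapped reads included. The deposited count table holds raw counts. The deposited normalised values are a signal, these counts divided by the authors' DESeq2 1.8.2 size factors. ATAC-seq reads of both species were mapped by the authors with Bowtie2 to the sea lamprey genome, and the deposited peak sets, called with MACS2 and merged, hold positions only. Names were taken from the study's supplementary lists. The header of the count table is shifted against its values, so columns were matched through the normalised table.

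Counts of all 8 DNT libraries were tested with edgeR 4.0.16 in R 4.3.3 (TMM, filterByExpr, quasi-likelihood model of stage alone, robust, with Benjamini-Hochberg adjustment and a threshold of 0.05), and the procedure was tested on simulated data. Each standard error is the absolute log2 fold change divided by the square root of the F statistic of its edgeR test. DESeq2 1.42.0 was an alternative. Other steps used Python 3.11.15, pandas 2.3.3, numpy 2.4.6 and scipy 1.17.1, and plots matplotlib 3.10.9. The alternatives concerned the test, scaling, filter, libraries, a replicate block, peak windows and overlaps, and the pseudocount of 1. Besides the 3 loci, the text names every tested integrin subunit locus, the 2 largest increases and 2 largest decreases from T18 to T21 of each other gene list, named neighbours within 50 kb and the 5 most similar named loci. Further loci (XLOC_005191, the further parvin and tensin loci, the unnamed neighbours and the markers *FOXA2*, *TP63* and *Krt8*) were named after their values were seen. Members and lists were chosen with earlier results of these data known. The library of T20 heads and embryos was not analysed here. No sequence is shown.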

Additional observations from a re-analysis of the deposited data

How the results depend on the processing

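The calls of the 3 loci from T18 to T20 and from T18 to T21 held under all 15 alternatives, and that of *ITGA2/10/11* from T20 to T21 did too. With each library left out in turn, the log2 fold change from T20 to T21 ranged from 0.54 to 0.80 for *ITGB3* and from 0.77 to 1.66 for *LGALS3*, each with 4 of its 15 alternatives past the threshold no longer. The change after T20 against that before ranged from -0.95 to -0.45 for *ITGB3* and from -2.23 to -0.46 for *LGALS3*. For *LGALS3* it was called by DESeq2's Wald test (-1.50, adjusted p = 0.0045) and without the low-count filter (-1.43, adjusted p = 2.5e-04 by edgeR). The cause was not tested.

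Counts of called loci moved more. Loci higher at T20 than T18 numbered 2742, and 1796 with libraries of both stages only (1872 to 3315 with a library left out). Lower loci numbered 1649, 1025 with libraries of both stages only and 2571 with upper quartile normalisation (1097 to 3025). Between T20 and T21, 1368 were higher (751 to 2216) and 1113 lower, 647 with libraries of both stages only (477 to 1762). A larger later step was called at 384 loci, 692 with DESeq2 and 910 without the filter (199 to 1629), and a smaller one at 763, 1255 without the filter (404 to 1873). Under upper quartile normalisation the median of all loci went from -0.00 to -0.11 (log2) between T18 and T20 and from -0.03 to -0.18 between T18 and T21. In the latter, higher loci made up 43.5% of calls in place of 56.3%.

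Whether replicate numbers pair the libraries was not settled. Deviations from the stage means correlated between same-numbered libraries with r from -0.037 to 0.145 (7 pairs, 2 over 0.1). Between differently numbered libraries r went from -0.158 to 0.158 (14 pairs, 1 over 0.1). Deviations of T20 replicates 1 and 2 from their mean are equal and opposite. Each r with T20 replicate 1 is thus that with replicate 2 with its sign reversed, and these pairs are not separate. Of the 8 libraries, 6 were closest to a library of their own number. With the replicate block, *LGALS3* from T20 to T21 had a log2 fold change of 1.20 (edgeR adjusted p = 0.061), and 729 loci were lower at T21 than at T20, 197 had a larger and 391 a smaller later step. No other call of the 3 loci changed under the block.

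First-step directions turned at integrin loci that did not pass the test or rested on few counts when a library was left out, with ranges of -0.47 (without T20 replicate 1) to 4.26 for XLOC_005236 (*ITGB1*), -0.65 to 0.38 for XLOC_006853 and -0.49 to 0.11 for XLOC_006854 (both highest without T20 replicate 2). Peak counts depend on the window: within 25 kb and 100 kb lay 36 and 68 sea lamprey peaks at *ITGA2/10/11*, 12 and 41 at *ITGB3* and 8 and 42 at *LGALS3*. When at least 50% of a sea lamprey peak had to be covered, 9, 5 and 5 were shared. Of the 5 nearest loci by course, 4 or 5 remained with another pseudocount, and ranks put 28, 29 and 48 loci level at the top, so the order among them carries little. The differences between steps were the least precise of the estimates, with standard errors of 0.26 to 0.43.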
